A study of Mus musculus with 32 samples.

Results

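Ribosome footprints of neural stem cells (NSCs) exposed to IFN-β for 14 h were compared with those of vehicle-treated NSCs, across all genes and by function. Footprints are the stretches of mRNA that a translating ribosome shields from nuclease, and Ribo-Seq counts them per coding sequence (CDS). The comparison held 8 of the 32 libraries of the series, chosen by their labels, 4 with vehicle and 4 with IFN-β. The NSCs came from the ventricular-subventricular zone of wild-type C57BL/6 mice of 8-12 weeks, were expanded in culture and received cycloheximide 5 min before lysis, which arrests ribosomes on their mRNAs. The labels name no other treatment or allele for either group. Each group held libraries numbered 1 to 4, so that every IFN-β library had a vehicle library of the same number. The labels do not say whether libraries of the same number came from the same culture. By the study's methods biological replicates were different mice or cultures from different mice. Further libraries, numbered 2, 3, 5 and 6, of NSCs that received vehicle or IFN-β for 2 h, are used at the end. The total RNA libraries were not used here, so a footprint level reflects the amount of an mRNA and its translation together.

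Type I interferons bind a receptor shared by nearly all cells and, through JAK kinases and STAT transcription factors, switch on antiviral genes. NSCs of the adult brain stand between quiescence, a resting state with little protein synthesis and rich lysosomes, and activation, in which the cells enlarge, build ribosomes and nucleotides and divide. Newly made membrane and secreted proteins fold in the endoplasmic reticulum (ER), travel in COPII vesicles to the Golgi apparatus and from there to the surface or the lysosome. The question here was which of these functions rose and fell beyond the genes of interferon, the cell cycle and ribosomal proteins.

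Total CDS counts were 5366290, 9876368, 8005818 and 10505108 in vehicle libraries 1 to 4 and 2956297, 6899430, 6754245 and 9401846 in IFN-β libraries 1 to 4. The shallowest library was thus IFN-β library 1, and IFN-β libraries had the lower total in every pair. Of 12 NSC markers 8 had at least 100 counts in each library. Pax6 (42 to 148 counts), Nr2e1 (23 to 144) and Hes5 (12 to 34) did not. Nor did Prom1, with 17 to 26 counts with vehicle and 4 to 12 with IFN-β, not scaled for depth. The 12 markers summed to 11633 to 13564 CPM with vehicle and 10794 to 12633 CPM with IFN-β, which does not show changes of single markers. CPM here are counts scaled to library size with edgeR's TMM factors. Markers of other cell types were low. Those of microglia summed to 38.5 to 43.0 CPM with vehicle and 42.7 to 46.7 CPM with IFN-β, 12 of 15 never passed 10 counts, and Aif1, Cx3cr1, C1qa, C1qc, Trem2 and Tyrobp had 0 counts in all 8 libraries. P2ry12 (45 to 190 counts) was higher with IFN-β and Itgam (52 to 322 counts) lower, with log2 fold changes of 1.63 and −0.74. The sum does not show these opposite changes. Ependymal markers summed to 33.2 to 47.7 and 90.5 to 111 CPM, mostly through Foxj1 and Rarres2, and endothelial markers to 15.97 to 20.5 and 43.9 to 56.2 CPM, mostly through Ly6c1. Neuronal markers (68.1 to 82.8 and 63.9 to 75.1 CPM) and pericyte markers (11.6 to 20.2 and 9.0 to 10.7 CPM) were also low. Their part in the results was not tested, and in such bulk samples fewer cells of a type and less RNA per cell cannot be told apart.

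Of 12113 genes tested, 7609 (62.8%) were called, 3856 (31.8%) higher and 3753 (31.0%) lower with IFN-β, at an adjusted p under 0.05 in edgeR's quasi-likelihood test with the replicate number as a block. With at least a 1.5-fold change besides, 2439 (20.1%) were called, 1223 (10.1%) higher and 1216 (10.0%) lower. The classes set aside were 296 tested interferon-stimulated genes (295 rose, median log2 fold change 3.69), 293 cell cycle genes (7 rose, 273 fell, −1.21), 67 histone genes (64 fell, −2.08) and 110 ribosomal protein genes (103 fell, −0.47). Interferon-stimulated genes went from 0.649% ± 0.021 of all footprints to 6.22% ± 0.33 (SD, n = 4), and histone genes from 3.97% ± 0.23 to 1.05% ± 0.11. Outside these classes 11347 genes were tested, of which 60.5% were called. There 3554 (31.3%) rose and 3313 (29.2%) fell, 930 (8.20%) and 879 (7.75%) by at least 1.5-fold. Their median log2 fold change was 0.01. The vehicle and IFN-β libraries did not overlap for 5591 (46.2%) of all genes tested and for 4894 (43.1%) of those outside the classes. Footprint counts are shares of a library, so each change below is relative to the other genes and not an absolute rate of protein synthesis. For 1183 of the 7609 called genes the CDS overlaps an exon on the other strand, and since the strand setting of the counting is not given, their reads cannot be told apart. Such genes are pointed out where they are named.

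To describe functions, 46 lists of genes were drawn up from general knowledge, holding 2543 of the tested genes outside the classes. Each is described by its members called in either direction and by its median, beside the 31.8% and 31.0% of all genes. Changes of genes are log2 fold changes of IFN-β over vehicle with their SE, and shares of footprints are means ± SD of 4 libraries. In 11 lists the median log2 fold change was at least 0.1, in 13 it was at most −0.1, and in 22 it lay between. The named genes follow a rule on size within each list, and familiar members were added to it after their values had been seen. The lists that moved up most held the folding machinery of the ER, the lysosome, p53-responsive genes, and the insulin, PI3K and FOXO genes. Those that moved down most held nucleotide synthesis, sterol synthesis, nuclear transport and ribosome biogenesis.

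**Figure D1:**
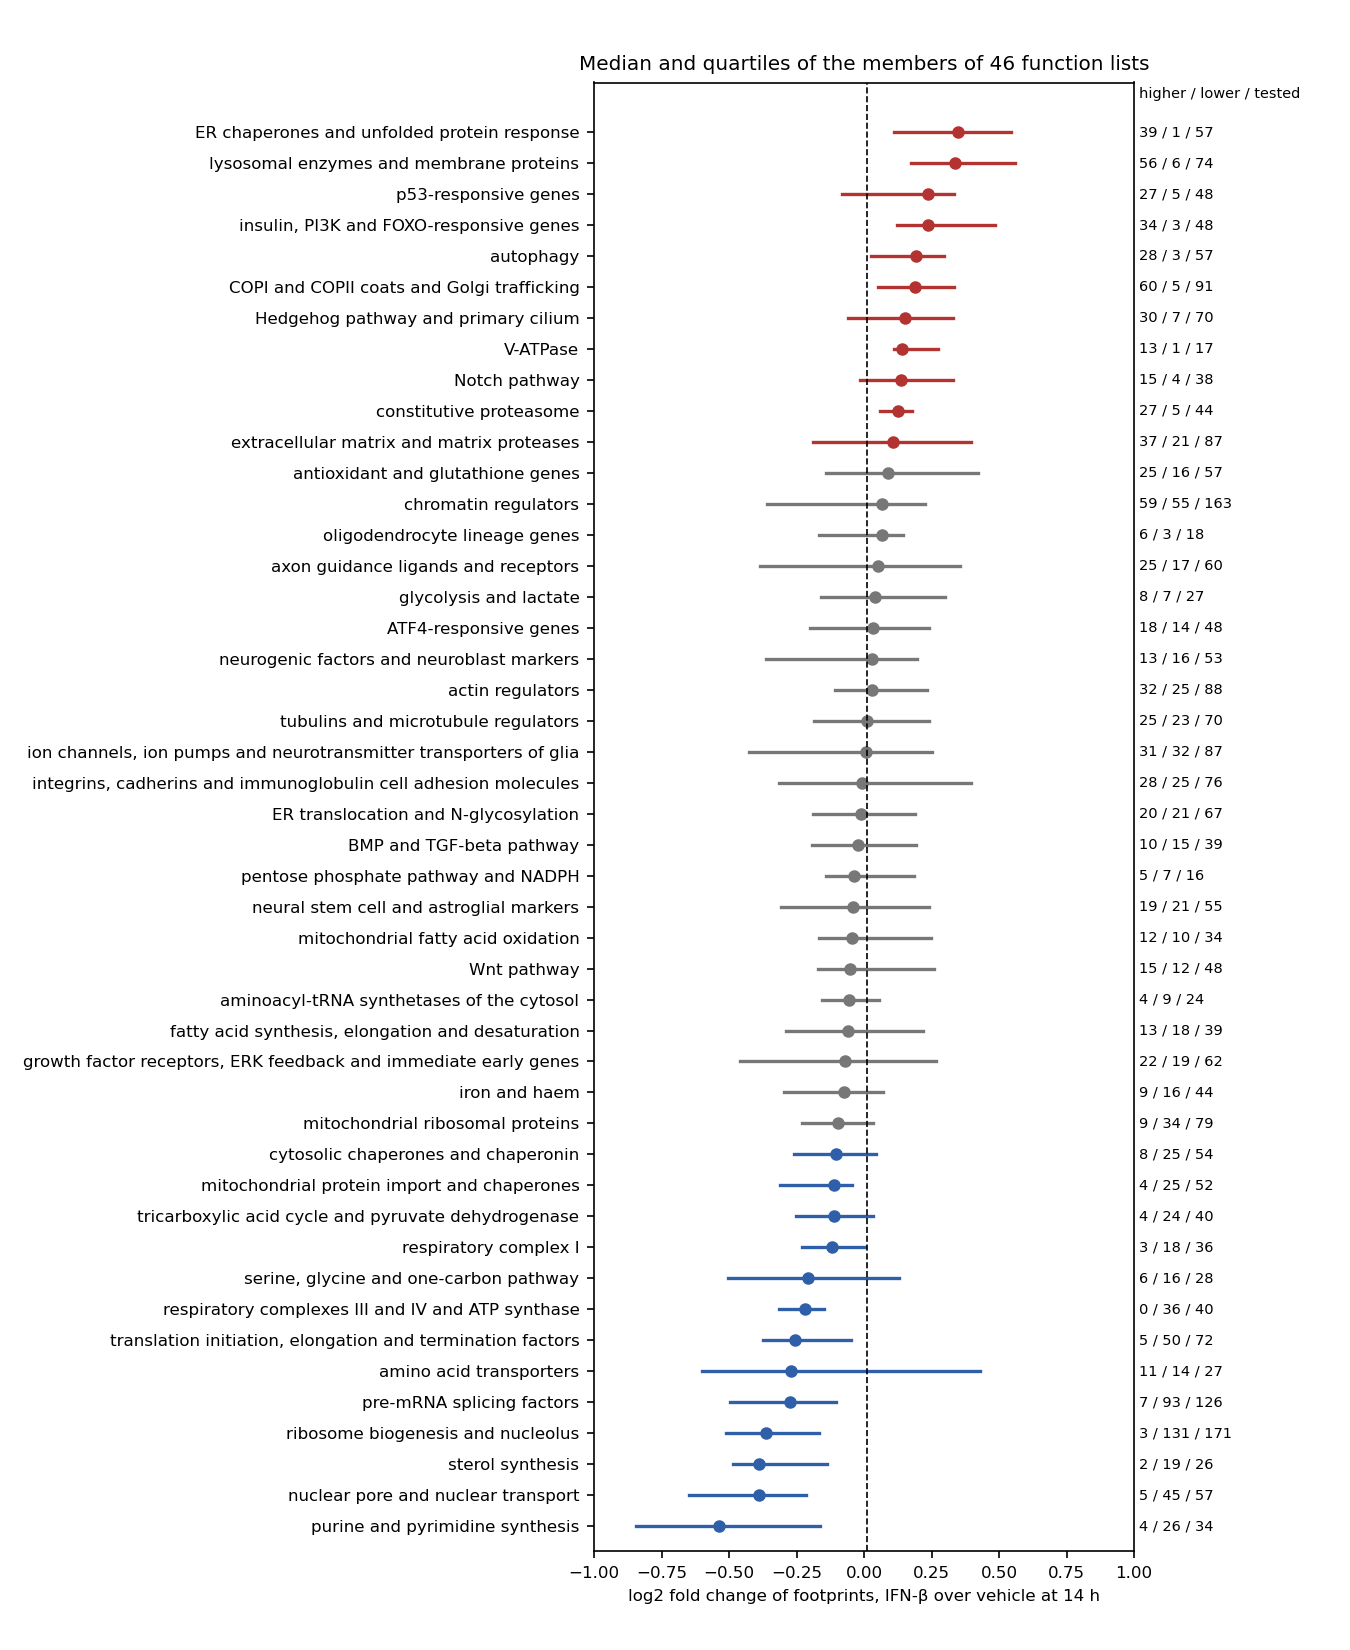
Median log2 fold change of footprints after 14 h of IFN-β against vehicle for each of the 46 function lists, with the bar from the lower to the upper quartile of its members and, at the right, members higher and lower at an adjusted p under 0.05 in edgeR out of those tested. The dashed line is the median of 0.01 of the genes outside the classes set aside, the ER list reaches 0.35 and the nucleotide list −0.54.

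Genes of protein folding in the ER rose as a group. Of 57 tested members 39 (68.4%) rose and 1 fell, 12 of the risers by at least 1.5-fold, and the median was 0.35. They took 1.35% ± 0.024 of footprints with vehicle and 1.78% ± 0.036 with IFN-β (SD, n = 4), and no vehicle library reached any IFN-β library. Several promoters of this list carry the ER stress response element, the sequence bound by ATF6 with NF-Y in the unfolded protein response. The element was searched on both strands as CCAAT and CCACG with 9 bases of any kind between them, in RefSeq promoters of GRCm38.p6, from 250 bases before to 50 after the start of a gene. It was in 8 of 46 promoters of the list (17.4%) and in 13 of 9369 promoters of all tested genes (0.139%). The 6 windows below show it in genes of the large chaperones and of the degradation machinery, each 29 bases read 5′ to 3′ on the strand of the gene, with the fixed letters of the element in capitals:
Hspa5: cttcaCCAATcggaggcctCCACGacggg
Calr: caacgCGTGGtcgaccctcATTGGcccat
Hsp90b1: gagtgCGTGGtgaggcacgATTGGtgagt
Pdia6: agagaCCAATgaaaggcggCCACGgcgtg
Syvn1: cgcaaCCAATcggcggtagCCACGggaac
Canx: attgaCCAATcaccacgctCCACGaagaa
The windows lie at chr2:34772020-34772048 for Hspa5 and chr8:84847070-84847098 for Calr, at chr10:86705528-86705556 for Hsp90b1 and chr12:17266486-17266514 for Pdia6, and at chr19:6046527-6046555 for Syvn1 and chr11:50325795-50325823 for Canx, all upstream of the start. In Calr and in the Hsp90b1 window shown the element runs on the opposite strand and is therefore seen as its reverse complement, and Hsp90b1 holds a second copy on its own strand. Of the 8 genes of the list with it 7 rose, and of all 13 tested genes with it 9 rose and 3 fell. A match of letters is a description and not a binding site.

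Among the abundant chaperones, Calr (calreticulin, a calcium-binding lectin that folds glycoproteins) had 1216, 1465, 1375 and 1475 CPM with vehicle and 1959, 2167, 2257 and 2278 CPM with IFN-β. Every IFN-β library lay above every vehicle library (log2 fold change 0.65 ± 0.034 SE, edgeR adjusted p = 4.7e-14). Hsp90b1, the HSP90 of the ER, had 1908, 1925, 1874 and 1821 CPM with vehicle and 2892, 2913, 3099 and 2880.0 CPM with IFN-β, again without overlap (0.65 ± 0.034 SE, edgeR adjusted p = 3.4e-14), although its CDS overlaps an exon on the other strand. Hspa5, or BiP, the HSP70 that opens the unfolded protein response when it leaves its sensors, rose less, with 1537, 1634, 1557 and 1596 CPM with vehicle and 2025, 2063, 2135 and 2029.9 CPM with IFN-β (0.38 ± 0.034 SE, edgeR adjusted p = 5.8e-10). Pdia6, a disulfide isomerase, rose by 0.62 ± 0.035. Canx, the membrane-bound partner of calreticulin that has the same element, had 1501, 1596, 1559.8 and 1629.6 CPM with vehicle and 1538, 1584, 1635 and 1654 CPM with IFN-β, and its groups overlapped (0.03 ± 0.033 SE, edgeR adjusted p = 0.47).

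Creb3l1 had the largest change of the list. It encodes OASIS, a transcription factor held in the ER membrane and released by cleavage, which is known for secretory and matrix genes. It had 4.59, 6.47, 6.23 and 6.62 CPM with vehicle and 29.5, 26.6, 23.3 and 25.4 CPM with IFN-β, a 4.19-fold rise with no overlap (2.07 ± 0.12 SE, edgeR adjusted p = 1.7e-13). Syvn1, the ubiquitin ligase that destroys misfolded ER proteins, rose by 0.78 ± 0.045, and Edem1, which hands glycoproteins to it, by 0.60 ± 0.076 (edgeR adjusted p = 2.9e-13 and 3e-07). Txndc5, a disulfide isomerase, was the 1 member that fell (−0.13), a call lost in some alternatives, and it overlaps an exon on the other strand. Of the other transcription factors of the stress response, Atf6 and its relative Atf6b rose by 0.17 ± 0.051 (a call lost in some alternatives) and 0.55 ± 0.050, while Xbp1 and Atf4 were not called. Xbp1 had 29.6, 34.5, 30.1 and 38.01 CPM with vehicle and 32.5, 35.8, 34.9 and 37.1 CPM with IFN-β, with overlapping groups (0.08 ± 0.070 SE, edgeR adjusted p = 0.36), and Atf4 had 102, 97.6, 74.2 and 70.8 CPM with vehicle and 105, 109, 78.7 and 69.9 CPM with IFN-β, also overlapping (0.07 ± 0.048 SE, edgeR adjusted p = 0.21). Ppp1r15a, the phosphatase subunit that reopens translation after stress, rose from low levels (6.79, 6.97, 3.87 and 4.13 CPM with vehicle and 10.4, 12.1, 8.87 and 7.62 CPM with IFN-β, 0.87 ± 0.14 SE, edgeR adjusted p = 1.4e-05). Of 48 ATF4-responsive genes 18 rose and 14 fell (median 0.03), close to the shares of all genes.

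The next station of the secretory route moved in the same direction. Of 91 tested genes of the COPI and COPII coats and Golgi trafficking 60 (65.9%) rose and 5 fell (median 0.19), and their footprints took 1.06% ± 0.012 of footprints with vehicle and 1.24% ± 0.012 with IFN-β. Sec24d, the COPII subunit that picks cargo, had 50.3, 55.6, 44.3 and 53.2 CPM with vehicle and 98.2, 101, 101 and 99.0 CPM with IFN-β, with no overlap (0.97 ± 0.056 SE, edgeR adjusted p = 2.3e-13). Kdelr3, a receptor that returns escaped chaperones to the ER, had 7.53, 10.9, 11.5 and 13.1 CPM with vehicle and 20.4, 22.98, 21.5 and 23.3 CPM with IFN-β (0.996 ± 0.10 SE, edgeR adjusted p = 1.3e-08). All 4 IFN-β libraries were above all 4 vehicle libraries for both. Trappc1, a subunit of a vesicle tether, fell by 0.35 ± 0.050. Between the ER and the coats, the genes of translocation and N-glycosylation had about as many members up as down, 20 and 21 of 67, and a median of −0.01.

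Lysosomal genes rose in an even larger share. Of 74 tested members 56 (75.7%) rose and 6 fell, 17 of the risers by at least 1.5-fold, with a median of 0.34. They took 0.984% ± 0.030 of footprints with vehicle and 1.28% ± 0.032 with IFN-β, and the groups did not overlap. Many lysosomal promoters carry the CLEAR element, bound by TFEB and TFE3, the factors that match lysosome number to need. Searched as TCACGTGA, a palindrome, it was in 8 of 59 promoters of the list (13.6%) and in 209 of 9369 promoters of all tested genes (2.23%), and 7 of the 8 genes rose. Of all 209 tested genes with it 86 rose and 39 fell, and the part of the element was not tested. The windows of 4 genes are shown because they place the element in an acid protease, a membrane protein, a glycosidase and the receptor that sorts such enzymes, with the element in capitals:
Ctsd: cgcccgcgtcTCACGTGAcccgttgaggg
Cln3: acgggtactgTCACGTGAcccccaacctg
Gla: gagatctcggTCACGTGAgcaactctcgg
Igf2r: aacgaggacgTCACGTGAgcaggaggcgg
They lie at chr7:142387908-142387936 for Ctsd, chr7:126583340-126583368 for Cln3, chrX:134601182-134601210 for Gla and chr17:12769737-12769765 for Igf2r, upstream of each start, and Gla and Igf2r hold a second copy.

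Lamp2, a major protein of the lysosomal membrane, had 496, 478, 449.8 and 457 CPM with vehicle and 715, 767, 789 and 802 CPM with IFN-β, so that each IFN-β library exceeded each vehicle library (0.71 ± 0.041 SE, edgeR adjusted p = 2.8e-13). Ctsd, the aspartic protease cathepsin D, had 749.9, 829, 756 and 848 CPM with vehicle and 1097, 1106, 1064 and 1204 CPM with IFN-β (0.49 ± 0.034 SE, edgeR adjusted p = 1.1e-11). Ctso, a cysteine protease, rose by 0.97 ± 0.059, and Lipa, the acid lipase, rose by 0.81 ± 0.053. Cln3 and Gla rose by 0.52 and 0.46, and Igf2r, which carries enzymes tagged with mannose 6-phosphate, by 0.60. Not all members followed. Galc, which degrades galactosylceramide, fell by 0.67 ± 0.051, with an exon of another gene on the opposite strand, and Arsk, a sulfatase, by 0.46 ± 0.10. Of the transcription factors of this programme Tfe3 had 49.8, 48.9, 51.5 and 49.1 CPM with vehicle and 67.01, 64.9, 62.2 and 64.9 CPM with IFN-β (0.38 ± 0.055 SE, edgeR adjusted p = 2.4e-06), without overlap, while Tfeb had 6.24, 8.19, 7.86 and 7.10 CPM with vehicle and 6.37, 7.04, 5.71 and 8.06 CPM with IFN-β, with overlapping groups (−0.11 ± 0.15 SE, edgeR adjusted p = 0.55).

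The proton pump that acidifies lysosomes and the autophagy genes shifted with them, by less. Of 17 V-ATPase subunits 13 (76.5%) rose and 1 fell (median 0.14), with Atp6v1d at 0.46 ± 0.041 among the risers and Atp6v0a1 the one that fell (−0.26 ± 0.038). Of 57 autophagy genes 28 (49.1%) rose and 3 fell (median 0.19). Gabarapl1, which coats the growing autophagosome, rose by 0.66, with an exon on the other strand, and Fundc1, a mitophagy receptor, fell by 0.46. Genes of the constitutive proteasome rose in 27 of 44 cases (61.4%) and fell in 5, all by less than 1.5-fold, with a median of 0.13.

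**Figure D2:**
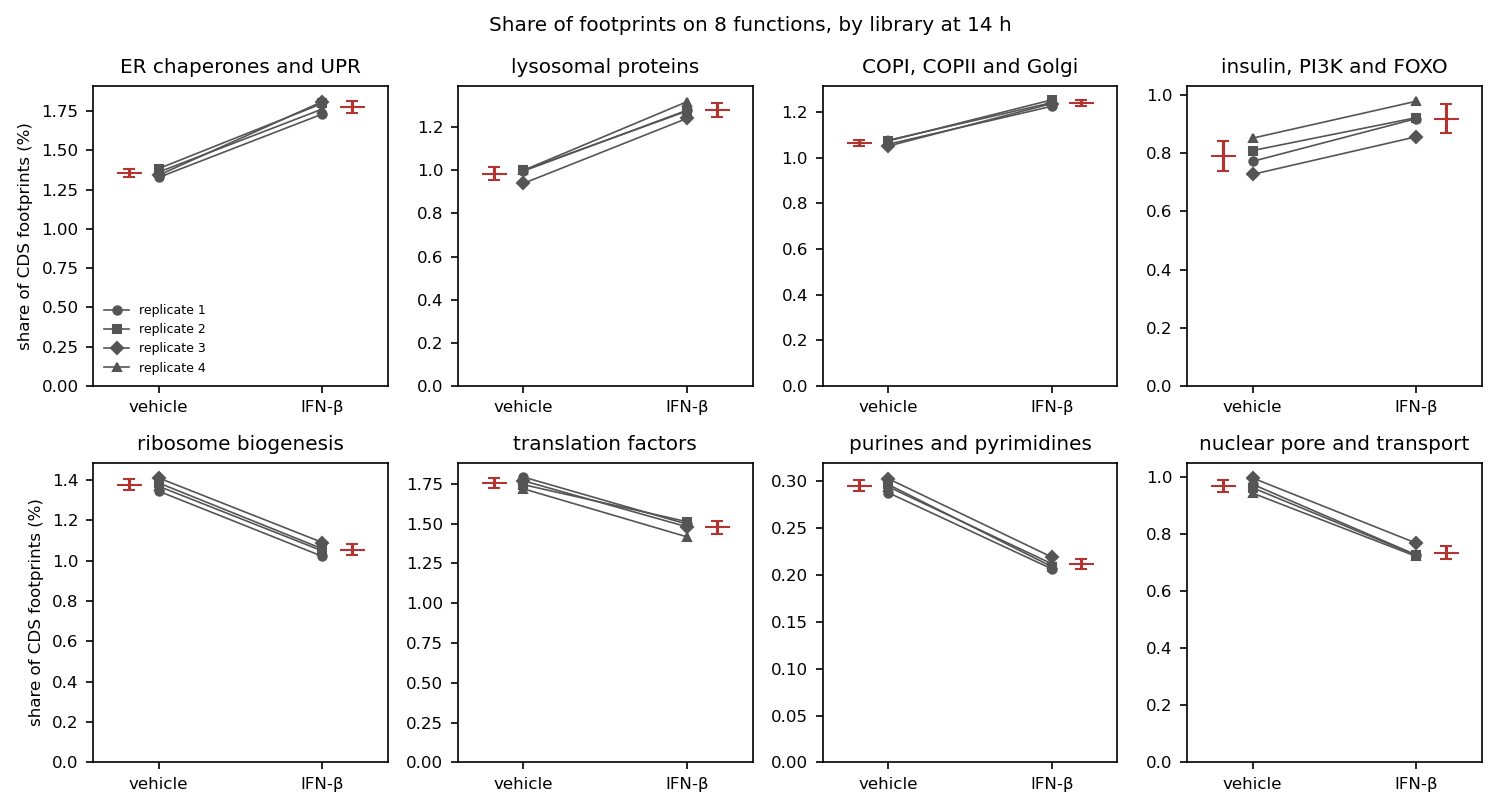
Share of all footprints of a library (percent) taken by 8 function lists, as points for the 4 vehicle and 4 IFN-β libraries, joined by replicate number, with mean ± SD in red. The 4 lists of the upper row lie higher in all IFN-β libraries than in any vehicle library and the 4 of the lower row lie lower in all of them.

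Genes of the insulin and PI3K pathway and of its FOXO factors, which are held out of the nucleus when the pathway signals, rose in 34 of 48 cases (70.8%) and fell in 3 (median 0.24). Their share was 0.772, 0.810, 0.728 and 0.852% with vehicle and 0.920, 0.923, 0.857 and 0.979% with IFN-β, apart by a narrow margin. Ddit4 (REDD1), a stress-induced brake on mTORC1, had 97.1, 92.6, 84.04 and 94.7 CPM with vehicle and 171, 148, 145 and 166 CPM with IFN-β, with the groups well apart (0.77 ± 0.043 SE, edgeR adjusted p = 1.6e-13). Cited2, a transcriptional coregulator induced by FOXO, had 13.04, 15.1, 16.1 and 17.4 CPM with vehicle and 23.8, 30.6, 26.3 and 31.9 CPM with IFN-β (0.87 ± 0.087 SE, edgeR adjusted p = 6e-09). Its change at 2 h was larger (2.37, edgeR adjusted p = 1.7e-17), and that at 14 h lay below it (difference −1.49, edgeR adjusted p = 8.3e-10). Sesn3, another mTORC1 inhibitor, rose by 0.45 ± 0.043, and Irs2, an insulin receptor adaptor that overlaps an exon on the other strand, by 0.43 ± 0.042. The other adaptor, Irs1, fell by 0.26 ± 0.048, and so did the kinase Sgk1 by 0.63 ± 0.090. Foxo3 had 72.9, 76.9, 75.3 and 85.5 CPM with vehicle and 104, 90.6, 85.8 and 93.3 CPM with IFN-β (0.24 ± 0.054 SE, edgeR adjusted p = 0.00051), just without overlap, and Foxo1 had 26.99, 27.2, 26.1 and 31.3 CPM with vehicle and 27.5, 28.7, 28.5 and 25.3 CPM with IFN-β and overlapping groups (−0.04 ± 0.084 SE, edgeR adjusted p = 0.71), with an exon on the other strand.

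Of 48 p53-responsive genes 27 (56.2%) rose and 5 fell (median 0.24), with 1 riser past 1.5-fold. Ccng1 and Mdm2, both direct p53 targets, rose by 0.40 and 0.31, and the death receptor gene Fas had 12.7, 12.7, 10.97 and 12.8 CPM with vehicle and 17.8, 17.8, 16.7 and 20.5 CPM with IFN-β (0.58 ± 0.10 SE, edgeR adjusted p = 2.4e-05). At 2 h Fas was already higher (1.68, edgeR adjusted p = 4.5e-14), while 6 of 47 p53-responsive genes were higher and 13 lower. The change of Fas at 14 h lay below that at 2 h (difference −1.10, edgeR adjusted p = 4.3e-07). Trp53 itself fell, with 91.1, 108, 116 and 115 CPM with vehicle and 76.1, 71.7, 79.6 and 88.2 CPM with IFN-β (−0.46 ± 0.052 SE, edgeR adjusted p = 4.5e-08), and so did Siva1, a target that promotes cell death (−0.81).

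The Notch pathway, which keeps NSCs undifferentiated and at rest, rose in 15 of 38 members (39.5%) and fell in 4 (10.5%), against 31.8% and 31.0% of all genes, with a median of 0.14. Notch1, a receptor, had 455, 395, 467 and 458 CPM with vehicle and 795, 688, 757 and 732 CPM with IFN-β, and its groups were far apart (0.74 ± 0.036 SE, edgeR adjusted p = 7.8e-15). Notch2, its relative, went the other way, with 261, 230.0, 229 and 276 CPM with vehicle and 231, 194, 202 and 214 CPM with IFN-β and a slight overlap of the groups (−0.25 ± 0.041 SE, edgeR adjusted p = 1.2e-05), a call lost in some alternatives. Numbl and Dtx1, an endocytic regulator and a ubiquitin ligase of the receptor, had the largest rises (1.09 ± 0.11 and 0.99 ± 0.11). Psenen, a subunit of the γ-secretase that frees the intracellular domain, had 33.4, 32.95, 34.8 and 38.2 CPM with vehicle and 18.1, 17.7, 14.4 and 15.8 CPM with IFN-β, more than a 1.5-fold fall with no overlap (−1.11 ± 0.089 SE, edgeR adjusted p = 1.2e-10). Of the target genes, Hes1 had 96.4, 82.2, 84.8 and 82.1 CPM with vehicle and 109.6, 95.4, 97.2 and 103 CPM with IFN-β and overlapping groups, although it was higher in each pair (0.24 ± 0.046 SE, edgeR adjusted p = 0.00011). Hes5, which overlaps an exon on the other strand, had 2.57, 2.73, 3.37 and 1.92 CPM with vehicle and 4.02, 2.73, 2.85 and 3.70 CPM with IFN-β and was not called (0.33 ± 0.24 SE, edgeR adjusted p = 0.24).

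Genes of the primary cilium and Hedgehog pathway, whose signal is received at the cilium, rose in 30 of 70 cases (42.9%) and fell in 7 (10.0%), with a median of 0.15. Wdr19 and Tctn2, of the ciliary transport and transition zone, rose by 0.95 ± 0.088 and 0.94 ± 0.11. The pathway's receptor Ptch1, which is also its target, rose by 0.39 ± 0.061 with overlapping groups, whereas Gli3, a transcription factor that mostly represses, and Cdon, a coreceptor, fell by 0.71 ± 0.085 and 0.43 ± 0.044.

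The extracellular matrix list rose in 37 of 87 members (42.5%) and fell in 21 (24.1%), median 0.11, and held large changes both ways. Agrn, the basement membrane proteoglycan agrin, had 452, 439, 449 and 438 CPM with vehicle and 921, 843, 869.5 and 839.8 CPM with IFN-β (0.96 ± 0.035 SE, edgeR adjusted p = 1.7e-17). Col18a1, a basement membrane collagen, had 6.06, 7.78, 8.23 and 10.5 CPM with vehicle and 21.8, 23.6, 22.5 and 24.3 CPM with IFN-β (1.46 ± 0.11 SE, edgeR adjusted p = 3.9e-11). Against these, the surface proteoglycan gene Sdc1 had 32.5, 36.9, 37.9 and 47.2 CPM with vehicle and 12.7, 12.8, 16.1 and 16.3 CPM with IFN-β (−1.43 ± 0.084 SE, edgeR adjusted p = 3.3e-13), and Col12a1, a collagen of fibril surfaces, fell by 1.07 ± 0.083. In none of these did an IFN-β library fall among the vehicle libraries.

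**Figure D3:**
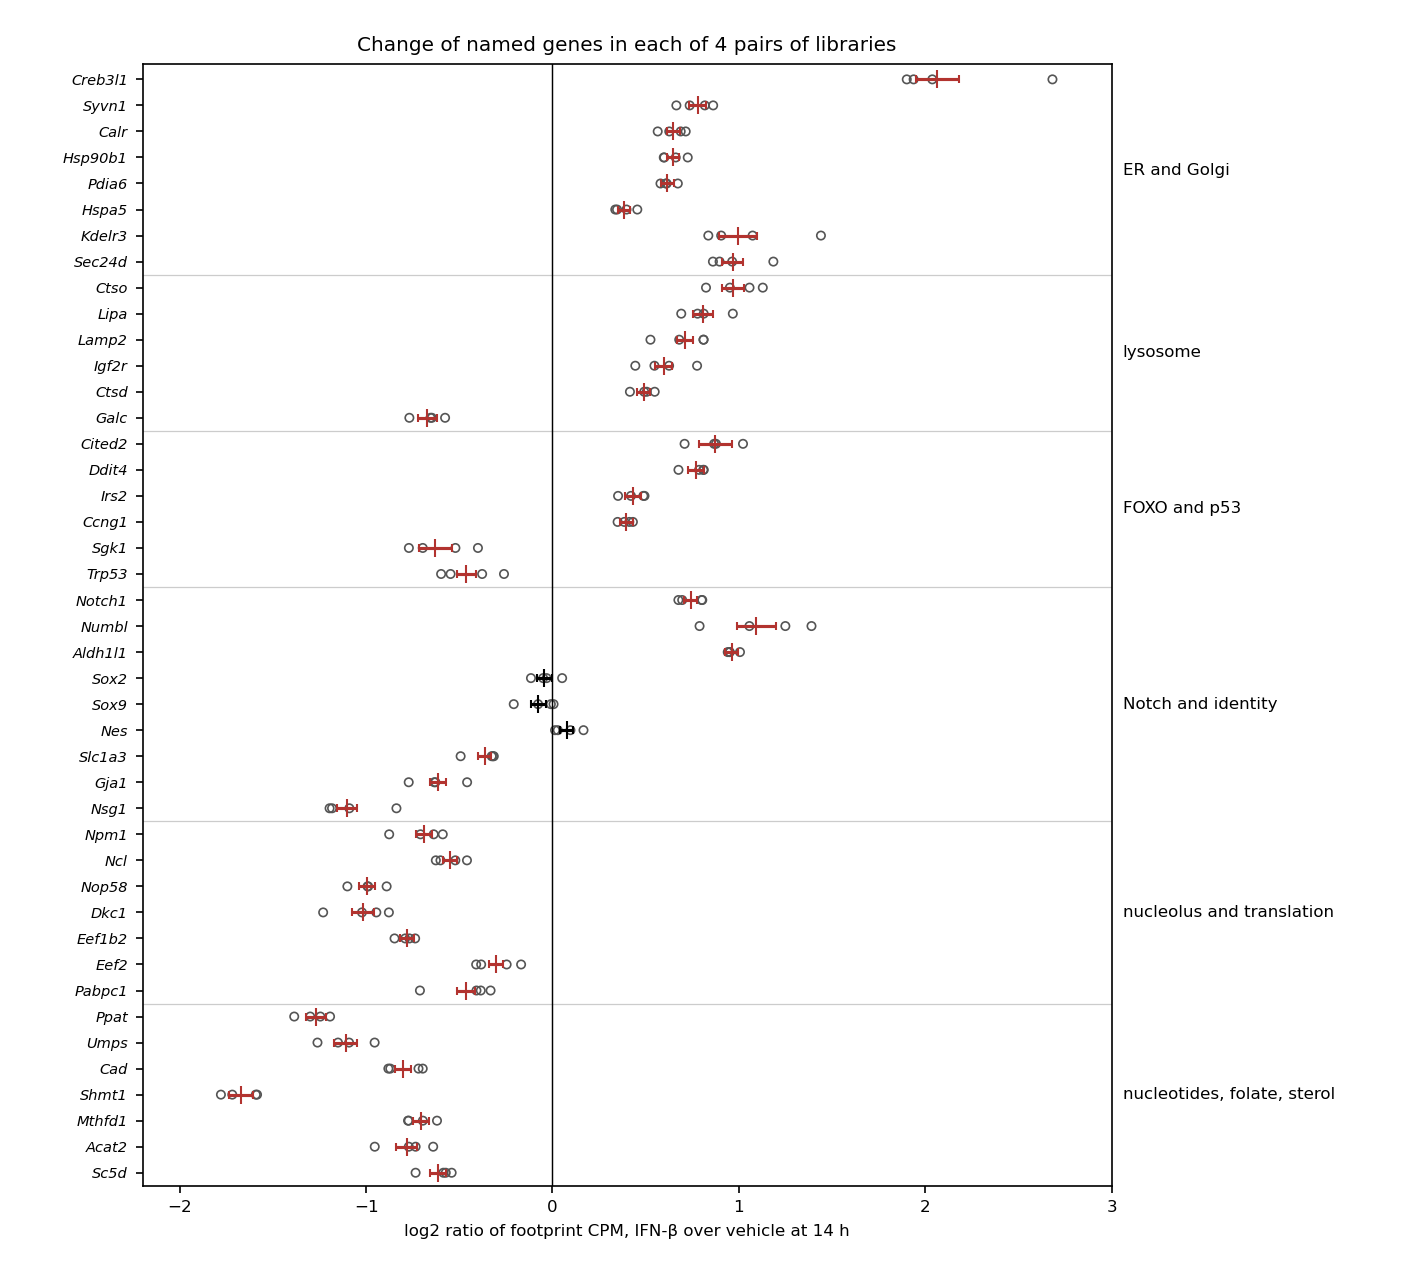
Log2 ratio of IFN-β over vehicle CPM in each of the 4 numbered pairs (points) for genes named in the text, with the fitted log2 fold change ± SE as a bar, in 6 functional groups. Sox2, Sox9 and Nes, in black, did not pass the threshold, and for every other gene shown all 4 pairs lie on one side of 0.

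Nucleotide synthesis moved down most. Of 34 tested genes of purine and pyrimidine synthesis 26 (76.5%) fell and 4 rose, with 14 falls of at least 1.5-fold and a median of −0.54. Their share went from 0.295% ± 0.0062 to 0.212% ± 0.0055 (SD, n = 4). Ppat, which commits ribose phosphate to purines, had 98.1, 96.7, 103 and 100.3 CPM with vehicle and 37.5, 40.8, 44.9 and 40.7 CPM with IFN-β, a 2.41-fold fall with no overlap (−1.27 ± 0.053 SE, edgeR adjusted p = 4.6e-16). Dck, the salvage kinase of deoxycytidine, had 77.9, 83.3, 87.5 and 83.9 CPM with vehicle and 33.8, 33.5, 43.7 and 36.3 CPM with IFN-β (−1.18 ± 0.060 SE, edgeR adjusted p = 1.8e-14). Cad, which starts pyrimidine synthesis, fell by 0.80 ± 0.042, and Umps, which completes UMP, by 1.11 ± 0.061 with an exon on the other strand. Of the genes that rose the largest was Ak1, an adenylate kinase that interconverts nucleotides (0.54 ± 0.040). Folate chemistry feeds these routes, and of 28 genes of serine, glycine and one-carbon metabolism 16 (57.1%) fell and 6 rose (median −0.21). Shmt1, the cytosolic hydroxymethyltransferase that loads folate with a carbon, had 70.7, 72.5, 84.04 and 77.5 CPM with vehicle and 23.5, 21.1, 25.5 and 25.8 CPM with IFN-β (−1.67 ± 0.063 SE, edgeR adjusted p = 4.2e-17), without overlap. Mthfd1, a folate enzyme of the same route, fell by 0.71 ± 0.043, Mtrr, which keeps methionine synthase active, by 0.80 ± 0.085, and the serine transporter gene Slc1a4 rose by 0.38 ± 0.046. The share of the whole list hardly differed (0.285% ± 0.0077 and 0.287% ± 0.0093), unlike its median.

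Genes that build the ribosome fell in most cases. Of 171 tested members of ribosome biogenesis and the nucleolus 131 (76.6%) fell, 3 rose and 37 were not called, with a median of −0.36. Together they took 1.38% ± 0.028 of footprints with vehicle and 1.05% ± 0.028 with IFN-β. Nop58, a core protein of the box C/D particles that methylate ribosomal RNA, had 186, 189, 196 and 199.9 CPM with vehicle and 93.8, 94.8, 106 and 93.2 CPM with IFN-β, a 1.995-fold fall (−0.996 ± 0.044 SE, edgeR adjusted p = 1.3e-15). Npm1, nucleophosmin, had 273, 268, 274 and 281 CPM with vehicle and 149, 164, 182 and 181 CPM with IFN-β (−0.69 ± 0.043 SE, edgeR adjusted p = 1.2e-12). Every IFN-β library was below every vehicle library for both. Dkc1, the pseudouridine synthase of the nucleolus, fell by 1.02, Ncl, nucleolin, by 0.55 and Polr1b, a subunit of RNA polymerase I, by 0.54. The largest falls by the rule were those of the exosome subunits Exosc8 (−1.29 ± 0.066) and Exosc2 (−1.15 ± 0.081, with an exon on the other strand). Xrn2, the 5′ exonuclease of the nucleus, was the larger of the named rises (0.31 ± 0.038).

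The E-box CACGTG, bound by MYC and by the MiT factors alike, was in 31 of 142 nucleolar promoters (21.8%) and in 1110 of 9369 promoters of all tested genes (11.8%). These letters lie within the CLEAR element above, which was in 1 nucleolar promoter, and they were also in 17 of 59 lysosomal promoters (28.8%). They were not particular to these lists. The other function lists searched had them in 13.9% (COPI, COPII and Golgi) to 26.3% (sterol synthesis) of promoters, among them autophagy (19.6%) and nuclear transport (19.1%). Of the 31 nucleolar genes 27 fell and 1 rose, and of the 17 lysosomal genes 14 rose and 1 fell. Among all 1110 tested genes with the E-box 366 rose and 334 fell. As whole lists, 76.6% of nucleolar genes fell and 75.7% of lysosomal genes rose, and the part of the E-box was not tested. A pair of nucleolar windows is given to set beside the lysosomal ones, with the E-box in capitals:
Nop2: tgtccctggatCACGTGtgttccggtgcc
Imp4: cggtcttagacCACGTGacatcccaaatc
They lie at chr6:125131812-125131840 for Nop2, which methylates ribosomal RNA and fell by 0.43, and at chr1:34439697-34439725 for Imp4, which processes its precursor and fell by 0.45. Myc had 238, 259, 252 and 248 CPM with vehicle and 169.5, 174, 177 and 173 CPM with IFN-β, with no overlap (−0.53 ± 0.038 SE, edgeR adjusted p = 2e-11).

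The machinery of translation followed. Of 72 initiation, elongation and termination factors 50 (69.4%) fell and 5 rose (median −0.26), 4 of the falls by at least 1.5-fold. Eef1b2, the exchange factor of EF1A, had 400.3, 399, 402 and 372 CPM with vehicle and 222, 234, 232 and 223 CPM with IFN-β (−0.78 ± 0.037 SE, edgeR adjusted p = 5.5e-15). Eef2, the translocase, had 2434, 2643, 2759 and 2765 CPM with vehicle and 2166, 2229, 2116 and 2082 CPM with IFN-β, a smaller fall with no overlap (−0.30 ± 0.038 SE, edgeR adjusted p = 2.5e-07). Eef1a1 and the poly(A)-binding protein gene Pabpc1 fell by 0.34 and 0.46. Eef2k, the kinase that blocks Eef2, rose by 0.37 ± 0.069, and an exon lies opposite its CDS. The cytosolic aminoacyl-tRNA synthetases, which charge tRNAs, stayed nearer to all genes, with 9 of 24 down, 4 up and a median of −0.05.

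Genes of nuclear transport and splicing fell in most cases. Of 57 nuclear pore and transport genes 45 (78.9%) fell and 5 rose (median −0.39), 17 of them down by at least 1.5-fold. Nup85, a scaffold nucleoporin, had 107, 106, 123 and 105 CPM with vehicle and 35.8, 41.4, 44.3 and 46.7 CPM with IFN-β (−1.35 ± 0.059 SE, edgeR adjusted p = 8.4e-16). Rcc1, the exchange factor that sets the Ran gradient, and Kpna2, an import receptor, fell by 1.22 ± 0.061 and 1.06 ± 0.057. Xpo6, the export receptor of actin, was the 1 riser past 1.5-fold, with 123, 109, 114 and 116 CPM with vehicle and 188, 179, 185 and 187 CPM with IFN-β (0.68 ± 0.041 SE, edgeR adjusted p = 4.4e-13). Several of these proteins also serve mitosis, and cell cycle genes fell with them (273 of 293), whose part was not tested. Of 126 splicing factors 93 (73.8%) fell and 7 rose (median −0.28), led by Lsm2 (−1.18 ± 0.067) and Lsm8 (−0.89 ± 0.056), subunits of rings that bind U6 RNA. Prpf8, the core of the spliceosome, rose by 0.38 ± 0.045.

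Sterol synthesis fell in 19 of 26 genes (73.1%) and rose in 2, with a median of −0.39. Acat2, which condenses acetyl-CoA, had 94.2, 109.6, 109 and 103 CPM with vehicle and 56.6, 64.2, 70.2 and 53.4 CPM with IFN-β (−0.78 ± 0.054 SE, edgeR adjusted p = 7e-12). Sc5d, a late desaturase, fell by 0.62 ± 0.043. Their activator Srebf2 had 476, 476, 469.8 and 478 CPM with vehicle and 504, 489.5, 469 and 452 CPM with IFN-β, with overlapping groups (0.01 ± 0.036 SE, edgeR adjusted p = 0.89). Fatty acid synthesis was mixed, with 18 of 39 genes down, 13 up and a median of −0.06.

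In mitochondria, respiratory complexes III and IV and ATP synthase fell in 36 of 40 genes (90.0%) and rose in none, yet no change reached 1.5-fold and the median was −0.22. Uqcrh, a small subunit of complex III, had 216, 241, 234 and 228 CPM with vehicle and 136, 161, 163 and 174 CPM with IFN-β (−0.52 ± 0.044 SE, edgeR adjusted p = 2.6e-10). Atp5g1, of the ring of ATP synthase, fell by 0.44 ± 0.056. Complex I (18 of 36 down, 3 up), the tricarboxylic acid cycle (24 of 40 and 4), mitochondrial import (25 of 52 and 4) and mitochondrial ribosomal proteins (34 of 79 and 9) had medians from −0.12 to −0.10. Fh1, fumarase, fell by 0.59 ± 0.040, the import chaperone gene Timm9 by 0.88 ± 0.098, and Hspd1, the matrix chaperonin, by 0.55 ± 0.047, while Pdk2, a kinase that blocks pyruvate dehydrogenase, rose by 0.51 ± 0.084. The coding sequences of complexes III and IV and ATP synthase are short, with a median of 334.5 bases. Genes outside the classes with a CDS of up to 948 bases had a median of −0.06, and the part of length in these results was not tested. Glycolysis had 8 of 27 genes up and 7 down (median 0.04), with the hexokinases on both sides. Hk1 rose by 0.78 ± 0.040 and Hk2 fell by 0.68 ± 0.11. Slc16a1, a lactate transporter, had 127, 125, 135 and 119.8 CPM with vehicle and 60.6, 56.7, 65.1 and 60.1 CPM with IFN-β (−1.06 ± 0.048 SE, edgeR adjusted p = 1.6e-15).

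Amino acid transporters went both ways, 14 of 27 down and 11 up (median −0.27). Slc7a2, a transporter of arginine and lysine at the cell surface, had 21.1, 22.8, 22.6 and 22.9 CPM with vehicle and 6.70, 6.46, 6.61 and 6.64 CPM with IFN-β, a 3.42-fold fall (−1.77 ± 0.11 SE, edgeR adjusted p = 1e-12). Slc7a5, the leucine transporter of growing cells, had 637, 642, 648 and 603 CPM with vehicle and 518, 500.4, 444 and 462 CPM with IFN-β (−0.40 ± 0.039 SE, edgeR adjusted p = 3.8e-09). The risers included Slc36a1 (0.75 ± 0.092) and Slc38a7 (0.67 ± 0.066), which export amino acids from the lysosome.

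**Figure D4:**
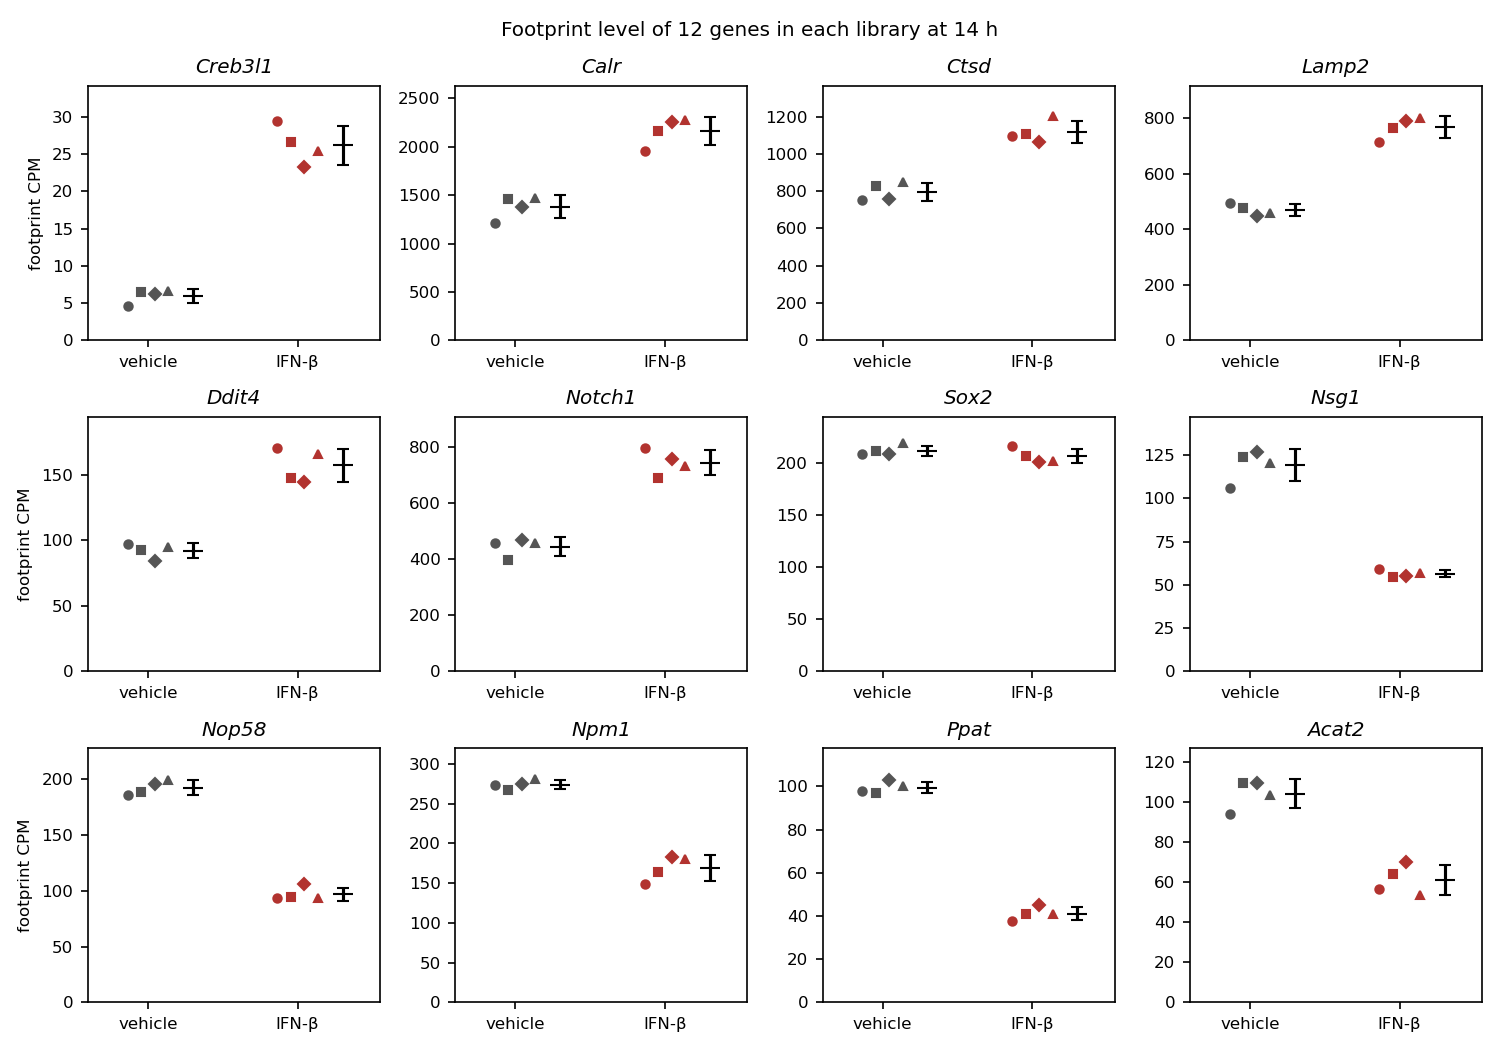
Footprint level (CPM, TMM-scaled) of 12 genes in the 4 vehicle and the 4 IFN-β libraries of 14 h, with mean ± SD. The ER, lysosomal and signalling genes Creb3l1, Calr, Ctsd, Lamp2, Ddit4 and Notch1 lie higher in all IFN-β libraries, Nsg1, Nop58, Npm1, Ppat and Acat2 lie lower in all of them, and the groups overlap for Sox2.

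Genes of NSC identity went both ways. Of 55 tested stem cell and astroglial markers 19 rose, 21 fell and 15 were not called (median −0.04). Sox2, a transcription factor of neural progenitors, had 209, 212, 209 and 219 CPM with vehicle and 216, 207, 201 and 202 CPM with IFN-β, and the groups overlapped (−0.04 ± 0.039 SE, edgeR adjusted p = 0.35). Sox9 had 228, 257, 248 and 237 CPM with vehicle and 229, 223, 235 and 235 CPM with IFN-β, likewise overlapping (−0.08 ± 0.041 SE, edgeR adjusted p = 0.11), and so did Nes, nestin, at 3369, 3442, 3516 and 4085 CPM with vehicle and 3401, 3680.1, 3946 and 4167 CPM with IFN-β (0.08 ± 0.034 SE, edgeR adjusted p = 0.054), which was called higher in some alternatives. Other markers split. Slc1a3, the glutamate transporter GLAST, had 742, 834, 788 and 781 CPM with vehicle and 596, 593, 628 and 626 CPM with IFN-β (−0.36 ± 0.037 SE, edgeR adjusted p = 8e-09), and Gja1 (connexin 43) and Tnfrsf19 (TROY) fell by 0.61 ± 0.045 and 0.66 ± 0.062. Aldh1l1, an astroglial folate enzyme, rose by 0.96 ± 0.034, with an exon on the other strand, and the lipid carrier genes Apoe and Clu by 0.70 ± 0.043 and 0.92 ± 0.11, the groups of Apoe overlapping. Hopx, a small homeodomain protein of resting stem cells, had 2.75, 2.32, 2.62 and 1.73 CPM with vehicle and 6.70, 7.90, 6.91 and 7.73 CPM with IFN-β, low but without overlap (1.70 ± 0.19 SE, edgeR adjusted p = 4e-08), and it overlaps an exon on the other strand. Egfr, a marker of activated NSCs, was at 803, 793, 818 and 854 CPM with vehicle and 825, 819, 910.1 and 935 CPM with IFN-β, and its groups overlapped (0.09 ± 0.035 SE, edgeR adjusted p = 0.022). That call was lost in some alternatives.

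Among genes of neurogenesis 13 of 53 rose and 16 fell (median 0.03). Nsg1, an endosomal protein of young neurons, had 106, 124, 127 and 121 CPM with vehicle and 59.3, 54.6, 55.3 and 56.6 CPM with IFN-β (−1.10 ± 0.054 SE, edgeR adjusted p = 8.2e-15). Pbx3, a homeodomain factor, fell by 0.99 ± 0.12. Map2, a neuronal microtubule protein, rose by 0.44 ± 0.034. Gfap and Dcx had too few counts to be tested. In the oligodendrocyte list 6 of 18 rose and 3 fell, with Olig2, the factor of the lineage, at 0.11 ± 0.036 (a call lost in some alternatives) and Omg, a myelin glycoprotein, at 0.82 ± 0.082.

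Several immediate early genes fell, in a list of growth factor signalling that went both ways. Of 62 members of that list 22 rose and 19 fell (median −0.07), 5 and 11 of them by at least 1.5-fold. Arc, an early gene of stimulated cells, had 56.6, 75.2, 56.6 and 63.6 CPM with vehicle and 22.8, 29.2, 24.04 and 25.1 CPM with IFN-β (−1.32 ± 0.063 SE, edgeR adjusted p = 5.5e-15). Ier2, another early gene, had 38.4, 36.3, 34.2 and 36.4 CPM with vehicle and 15.7, 15.9, 15.6 and 20.8 CPM with IFN-β (−1.05 ± 0.087 SE, edgeR adjusted p = 2.1e-10), and Fos fell by 0.58 ± 0.11. Among the risers were the receptor gene Mertk (0.72 ± 0.081) and Spred3, an inhibitor of ERK signalling (0.68 ± 0.10). Wnt (15 of 48 up, 12 down), BMP and TGF-β (10 of 39 and 15), adhesion (28 of 76 and 25), axon guidance (25 of 60 and 17), ion channels (31 of 87 and 32) and chromatin (59 of 163 and 55) were mixed too. Single members moved far within them, such as Tgfbr2, a TGF-β receptor (1.08 ± 0.058), Ror2, a Wnt receptor (−0.72 ± 0.099), Kat2b, a histone acetyltransferase (1.46 ± 0.067), and Hmgb2, a chromatin protein of dividing cells (−1.49 ± 0.045). Antioxidant genes rose in 25 of 57 cases and fell in 16, with Mgst1, a microsomal glutathione transferase, at 1.08 ± 0.043.

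Cell contacts and the cytoskeleton changed member by member. In the adhesion list Pcdh17, a protocadherin, rose by 1.58 ± 0.076, whereas Gjc1, a gap junction connexin, and Cntn1, contactin, fell by 1.36 ± 0.096 and 1.07 ± 0.094. Of the guidance genes, the netrin receptor gene Unc5b rose by 0.93 ± 0.075, and the semaphorin gene Sema3c and Robo1, a Slit receptor, fell by 1.27 ± 0.10 and 1.03 ± 0.051. Kcnd2, a potassium channel, and Grm3, a glutamate receptor of glia, fell by 1.16 ± 0.12 and 1.08 ± 0.067. Of 70 tubulins and microtubule regulators 25 rose and 23 fell (median 0.01), among them Tubb5, with 2237, 2402, 2604 and 2536 CPM with vehicle and 1284, 1336, 1522 and 1585 CPM with IFN-β, and Stmn1, which disassembles microtubules, with 149, 204, 197 and 205 CPM with vehicle and 82.4, 95.1, 112 and 122 CPM with IFN-β. Both fell without overlap (−0.77 ± 0.035 SE, edgeR adjusted p = 1.6e-15, and −0.88 ± 0.050 SE, edgeR adjusted p = 2e-13). Of 88 actin regulators 32 rose and 25 fell (median 0.03), with the GTPase gene Rhoc at 129, 127, 153 and 165 CPM with vehicle and 278, 267, 328 and 324 CPM with IFN-β (1.05 ± 0.039 SE, edgeR adjusted p = 3.9e-17) and the myosin gene Myh10 lower by 0.82 ± 0.050. Of 54 cytosolic chaperones 8 rose and 25 fell (median −0.10), Bag3, a cofactor of HSP70, by 0.85 ± 0.058 upwards and Fkbp5, a cochaperone of steroid receptors, by 1.12 ± 0.067 downwards. Of 44 genes of iron and haem 9 rose and 16 fell (median −0.07), and Tfrc, the transferrin receptor, had 369.6, 388, 401 and 381 CPM with vehicle and 226, 241, 262 and 259 CPM with IFN-β, lower in every IFN-β library (−0.64 ± 0.038 SE, edgeR adjusted p = 5.2e-13).

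The largest single changes outside the classes, among genes with at least 100 counts on average and the same sign in all 4 pairs, lay mostly outside these lists. Of the 12 largest rises Gm43302, a predicted gene, had 1.102, 0.404, 0.623 and 1.15 CPM with vehicle and 252, 266, 289.5 and 305 CPM with IFN-β (8.43 ± 0.097 SE, edgeR adjusted p = 8.4e-28), and 3 others had an identifier or predicted name only. Tent5a, a poly(A) polymerase that stabilises mRNAs of secreted proteins, had 9.18, 10.3, 9.10 and 8.54 CPM with vehicle and 50.9, 62.6, 60.3 and 63.1 CPM with IFN-β, a 6.48-fold rise (2.70 ± 0.083 SE, edgeR adjusted p = 5.9e-19). Nlgn2, a synaptic adhesion protein of inhibitory contacts, had 49.6, 34.1, 37.9 and 31.7 CPM with vehicle and 153, 142, 133 and 118 CPM with IFN-β (1.86 ± 0.058 SE, edgeR adjusted p = 9.2e-19). Anks1b and Ssc5d rose by 2.17 and 2.08, and Cmtr1, which methylates the mRNA cap, Pde3a, a phosphodiesterase, and Igsf10 by 1.85, 1.73 and 1.67, the last 3 with an exon on the other strand. None of these named genes overlapped between groups, as held for 43.1% of the genes tested outside the classes. Gm43302, Igsf10, Cmtr1 and Pde3a were already higher at 2 h (5.62, 1.68, 0.54 and 0.45). The change of Igsf10 did not differ between the times (difference −0.01, edgeR adjusted p = 0.96). Anks1b and Nlgn2 were not called at 2 h (0.10 and 0.08). The interferon class was drawn from lists of named genes and may miss interferon-stimulated genes. Whether Gm43302, Cmtr1 or any other of these rises belongs to it was not tested. Of the 12 largest falls 6 had an identifier only and Gm42743 a predicted name. Dtl, an adaptor that degrades replication factors, had 56.01, 58.9, 70.3 and 65.4 CPM with vehicle and 14.1, 14.2, 16.5 and 11.98 CPM with IFN-β (−2.18 ± 0.079 SE, edgeR adjusted p = 2.3e-17). Ung, which removes uracil from DNA, had 24.97, 31.8, 31.4 and 38.7 CPM with vehicle and 3.02, 6.46, 7.66 and 8.39 CPM with IFN-β (−2.25 ± 0.11 SE, edgeR adjusted p = 8.8e-15). Fam111a, a protease of the replication fork, fell by 2.01 ± 0.059, and Zfp367 and Nrm, which overlap exons on the other strand, by 2.30 and 1.94. Dtl, Ung and Fam111a act in DNA replication and repair but are not in the cell cycle class that was set aside.

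The 2 exposures were set side by side to see which of these functions moved early. Each time had its own vehicle libraries. The change of 6944 of 12508 genes (55.5%) differed between the times in edgeR's interaction test over 16 libraries, 3499 (28.0%) with the change at 14 h above that at 2 h and 3445 (27.5%) below. With no replicate block the count was 3867. At 2 h 15.9% of 12104 genes tested were higher with IFN-β and 13.4% lower. Ribosome biogenesis turned between the times. At 2 h 68 of its 171 genes were higher and 3 lower (median 0.16), at 14 h 3 were higher and 131 lower (−0.36), and for 135 the change at 14 h lay significantly below that at 2 h. Translation factors had 36 of 72 higher and 2 lower at 2 h (median 0.14), and 55 lay significantly below at 14 h. Splicing factors (29 higher and 0 lower of 126 at 2 h) and nuclear transport genes (11 and 2 of 57) had 93 and 44 members significantly below, and for nuclear transport the share higher at 2 h was close to that of all genes.

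At 2 h the lysosomal and ER lists lay nearer to the shares of all genes than at 14 h. Members of the insulin, PI3K and FOXO list and Notch genes were more often lower than higher. Of all genes 15.9% were higher and 13.4% lower at 2 h, and the change of 28.0% lay significantly above at 14 h and of 27.5% below. Lysosomal genes had 8 of 74 higher and 14 lower at 2 h (median −0.07), and 55 lay significantly above at 14 h. ER chaperones had 6 of 57 higher and 5 lower (−0.04), with 38 above. The insulin, PI3K and FOXO list had 8 of 48 higher and 19 lower (−0.09), with 29 above. Notch genes had 1 of 37 higher and 17 lower at 2 h (median −0.14), and 23 lay above at 14 h. Nucleotide synthesis (5 of 34 higher and 1 lower) and sterol synthesis (5 of 26 and 2) were near 0 at 2 h, and 23 and 18 of their members lay below at 14 h.

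Single genes show the turn, chosen after their values were seen. Nop58 was 0.48 ± 0.057 at 2 h and −0.996 ± 0.044 at 14 h (difference −1.46 ± 0.078, edgeR adjusted p = 5.4e-15). Pabpc1 was 0.63 ± 0.066 at 2 h and −0.46 ± 0.048 at 14 h (difference −1.08 ± 0.097, edgeR adjusted p = 3e-10). Both were above their 2 h vehicle libraries and below their 14 h ones. The kinase gene Sgk1 and the chaperone gene Fkbp5 went from 1.61 at 2 h to −0.63 at 14 h (edgeR adjusted p = 1.8e-10 for the difference) and 0.60 at 2 h to −1.12 at 14 h (edgeR adjusted p = 1.5e-14 for the difference). The mTORC1 brake Ddit4 ran opposite, at −0.67 ± 0.066 at 2 h and 0.77 ± 0.043 at 14 h (difference 1.44 ± 0.088, edgeR adjusted p = 9.2e-14), and so did Sox8, a factor of the oligodendrocyte lineage with an exon on the other strand, at −1.44 ± 0.055 at 2 h and 0.58 ± 0.041 at 14 h (difference 2.03 ± 0.073, edgeR adjusted p = 6.3e-19).

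**Figure D5:**
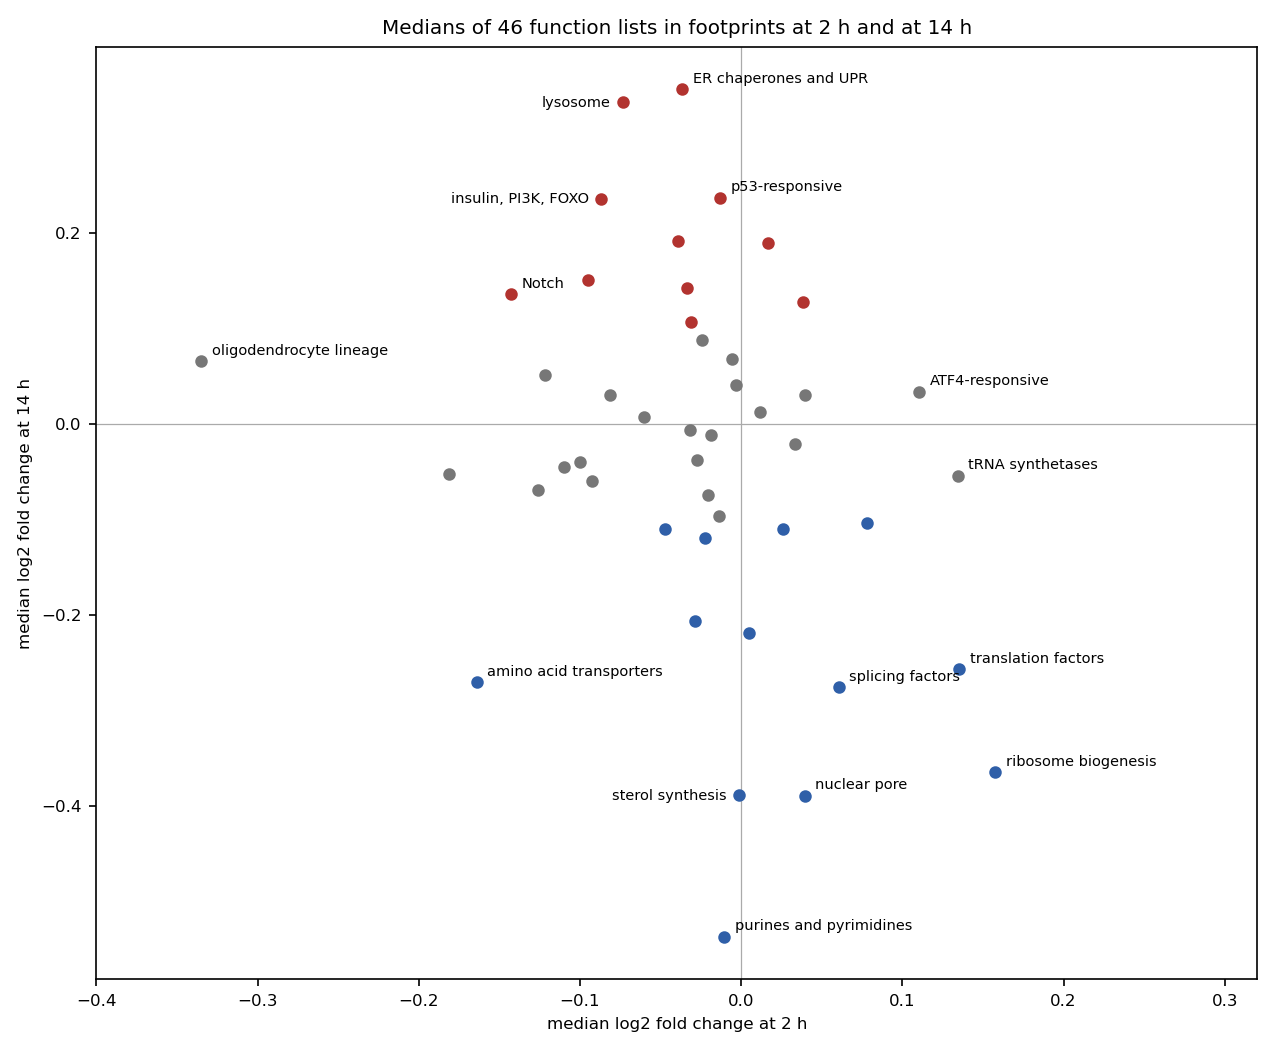
Median log2 fold change of each function list with IFN-β against vehicle at 2 h (horizontal axis) and at 14 h (vertical axis), each against its own vehicle libraries. Ribosome biogenesis (0.16 and −0.36) and translation factors (0.14 and −0.26) lie at the lower right, and lysosomal genes (−0.07 and 0.34) and Notch genes (−0.14 and 0.14) at the upper left.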

How the data were processed

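Ribosome footprints were measured in 16 libraries of cultured mouse NSCs, and the 8 libraries of 14 h carry the main comparison. The authors trimmed reads with Trim Galore 0.4.4, mapped them with Bowtie 0.12.7 to the mm10 transcriptome, removed duplicates and counted reads per CDS with SummarizeOverlaps in Union mode, and they deposited raw whole-number counts with no normalization. The strand setting is not given in the sources used here. Removing duplicates without molecular identifiers can also remove separate footprints of abundant, short mRNAs. All columns of the table were mapped to a sample by their labels.

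Of 23035 genes 22205 had a name in GENCODE M21, and the others took 0.617% of the 14 h footprints. A gene entered when 4 or more of the 8 libraries gave it 10 counts or more, and was tested with edgeR 4.0.16 in R 4.3.3 (TMM, quasi-likelihood, two-sided, replicate number as a block), with Benjamini-Hochberg adjustment over all genes and calls at an adjusted p under 0.05. The difference between 14 h and 2 h was the interaction over 16 libraries, with the replicate number within time as a block. The block was set in advance as part of the comparison. Same-numbered vehicle and IFN-β libraries deviated together from their group means (r = 0.2030 to 0.4344 at 14 h). The procedure was tested on simulated data. Figures were drawn with matplotlib 3.10.9.

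The 46 lists and the named genes were chosen with earlier results of these data known, and the lists were written from general knowledge. Genes of 4 classes were taken out of them, namely interferon-stimulated genes (a list and the study's 300-gene list of the interferon response), cell cycle, histone and ribosomal protein genes. The rule took the 12 largest rises and falls outside the classes among called genes averaging 100 counts or more, with one sign in all 4 pairs, and up to 2 members per direction of each list. The text names a part of these, 12 identity genes fixed beside the rule where they were measured, and familiar members added after their values had been seen. A few members are not reported here. Promoters are those of RefSeq on GRCm38.p6. Alternatives were DESeq2 1.42.0, limma-voom (limma 3.58.1), other scalings and filters, no block, and each library or pair left out. Depth limits the precision. The SE comes from the fit with the block, so it reflects the spread left after differences between pairs are taken out.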

Additional observations from a re-analysis of the deposited data

Results flagged for a closer look

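Of 422 groups of 4 libraries looked at, 26 (6.16%) had 1 library far from the other 3 by Dixon's criterion, where chance flags about 5%. Vehicle library 1 was low for Hmgb2 (232 CPM), Lsm8 (65.9), Slc1a4 (81.5), Sox8 (188) and Stmn1 (149) and high for Pabpc1 (360). Vehicle library 2 was low for Cdon (127 CPM) and Notch1 (395), and its share of footprints on respiratory complex I was high (0.663%). Vehicle library 3 was low for Fas (11 CPM) and for the lysosomal share (0.939%), and high for Kat2b (22.6 CPM) and Nup85 (123). Vehicle library 4 was low for Eef1b2 (372 CPM) and high for Mgst1 (127) and for the share of neurogenic factors (0.572%).

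IFN-β library 2 was low for Bag3 (91.8 CPM) and for the share of fatty acid synthesis (0.911%). IFN-β library 3 was high for Hsp90b1 (3099 CPM), Nop58 (106) and the share of nuclear transport (0.767%). IFN-β library 4 was high for Ier2 (20.8 CPM), Olig2 (1033) and Tgfbr2 (105) and low for Sc5d (113) and for the share of the cilium and Hedgehog list (0.214%). Of these genes Olig2 is the 1 whose call was lost without the pair of that library.

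The change with IFN-β differed between 14 h and 2 h for 6944 genes by the interaction in edgeR. The difference on the log2 scale was −1.46 for Nop58, −1.08 for Pabpc1, −1.71 for Fkbp5, −2.25 for Sgk1, 1.44 for Ddit4 and 2.03 for Sox8.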

How the results depend on the processing

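Under 21 alternatives no list with a median of at least 0.1 in size (24 lists) and no called gene named in the text turned its direction. Of the 155 called named genes 150 kept their call in every alternative that tested them. Txndc5 lost it without pair 1 or 4, Egfr without pair 3 or 4 and Olig2 without pair 4, all also with no replicate block, Txndc5 and Egfr also with DESeq2 and Egfr with no filter. Atf6 lost it with DESeq2 and, like Notch2, when single libraries were left out of that unpaired fit. Nes, not called, was called higher in 7 alternatives (0.0780 to 0.1047). With no replicate block 3176 genes were higher and 3185 lower, and with DESeq2 2747 and 2759.

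Leaving out genes that overlap a gene on the other strand left 4272 called genes (2221 higher, 2051 lower), 1414 of them by at least 1.5-fold (736 and 678), since fewer genes were tested. Leaving out 1 library or pair gave 5613 to 7181 calls (2770 to 3633 higher, 2776 to 3548 lower), 2207 to 2410 by at least 1.5-fold (1043 to 1240 and 1115 to 1187). Between 10 and 13 lists then had a median of at least 0.1 and between 10 and 14 of at most −0.1. For the difference between the times the range was 6335 to 6668 (3206 to 3433 above, 3079 to 3338 below), and with no replicate block it was 3867 (1926 and 1941). The cause was not tested. Against footprints outside the 4 classes the ratio of shares was 1.0477 for BMP and TGF-β genes, 0.9514 for ion channels and 0.8075 for splicing factors, further than 1 SD from the ratios to all footprints. Limits are the 4 libraries per group, the share-based scale and the unstated strand setting. Genes below 10 counts in most libraries, Gfap and Dcx among them, were not tested at this depth.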
